A study of Homo sapiens with 6 samples.

Results

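The 3 libraries of T47D cells kept in normoxia were described on their own, out of the 6 libraries of the series. They were chosen by their labels. T47D is an established line of breast carcinoma cells with a luminal, hormone receptor-positive phenotype. The cells were grown as an adherent culture in RPMI medium with 10% FBS at 20% O2, and the labels name no allele, transgene or drug. Total RNA was extracted and made into stranded mRNA libraries. The labels place the other 3 libraries in a chamber at 0.5% O2, while the paper names another oxygen level for this sequencing. They were not used here. A single line was sampled. The labels do not say whether the 3 libraries came from separate cultures, while the study describes its data as independent experiments.

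Luminal cells form the inner layer of the mammary duct. They carry the simple-epithelial keratins KRT8, KRT18 and KRT19, and their identity is held by transcription factors such as GATA3 and FOXA1, which act with the estrogen receptor. The outer, basal layer carries KRT5, KRT14 and TP63 and contractile proteins. The progesterone receptor is a classical estrogen target, and its transcript is used as a sign of an active estrogen receptor.

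Replicates 1, 2 and 3 held 40943424, 37999713 and 32989104 counts over 27754 genes. A count of 3, taken here as the floor of detection, corresponded to 0.0733, 0.0789 and 0.0909 counts per 1000000 counts of a library (CPM). It is also the upper limit for a gene at 0, for counting error only. Levels were compared between genes as TPM, that is, counts divided by the counted length of the gene and scaled to a sum of 1000000 in each library. A mean of at least 1 TPM was reached by 13610 genes, or 49% of the genes in the files. A mean of at least 10 TPM was reached by 9348 genes, at least 100 TPM by 1975 genes (7.12%) and at least 1000 TPM by 111 genes. At most 3 counts in every library were found for 10951 genes (39.5%), of which 7837 had no count at all.

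Replicate 3 stood apart from the other libraries, and this touches several values given here. Pearson's r of log2(TPM + 1) across the 27754 genes, which are not independent replicates, was 0.9975 between replicates 1 and 2, 0.9947 between 1 and 3 and 0.9935 between 2 and 3. Spearman's rho was 0.977, 0.971 and 0.970. The biological coefficient of variation (BCV, the spread between libraries beyond counting noise) was 0.136 over 14251 genes, and 0.0601 without replicate 3. Levels below are therefore given for each library in the order of replicates 1, 2 and 3.

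Transcripts of the translation machinery and the cytoskeleton led the ranking. The 10 most abundant genes held 5.97% ± 0.07 of all TPM (SD, n = 3), the 100 most abundant 26.1% ± 0.23 and the 1000 most abundant 57.6% ± 0.23, and 635 genes together made up 50%. By RefSeq biotype, protein-coding genes held 95.7% ± 0.28 of TPM, ribosomal RNA 1.48% ± 0.15 and long noncoding RNA 1.28% ± 0.11. Of the 25 most abundant genes, 15 encoded cytosolic ribosomal proteins. The remaining 10 were the mitochondrial ribosomal RNAs RNR2 and RNR1, the actin gene ACTB, the actin-binding thymosin TMSB4X, the keratins KRT8, KRT19 and KRT18, the elongation factors EEF1G and EEF1A1, and RACK1, a scaffold protein of the small ribosomal subunit.

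**Figure D1:**
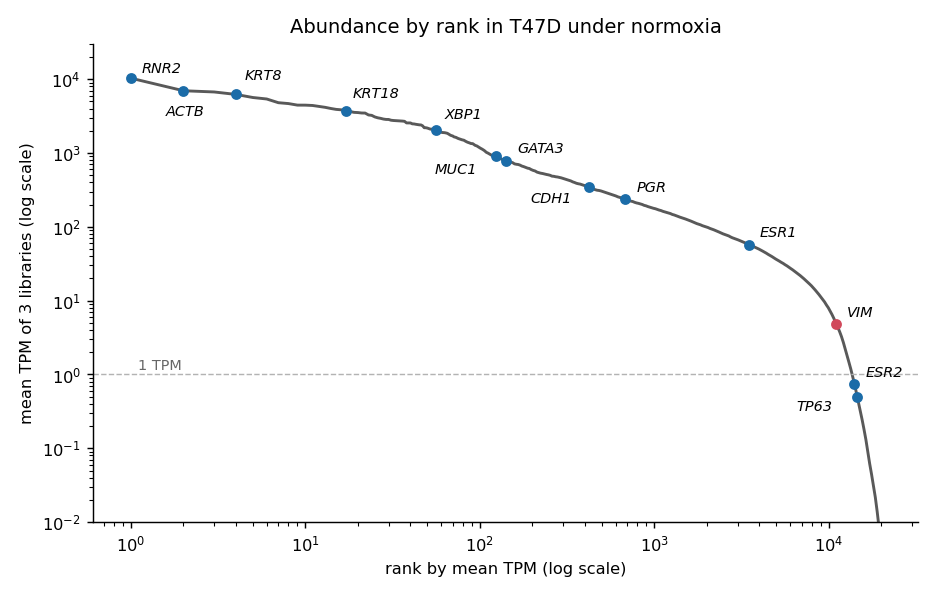
Mean TPM over the 3 normoxia libraries (vertical, log scale) against rank by mean TPM (horizontal, log scale); points mark named genes and the dashed line marks 1 TPM. The marked genes KRT8, KRT18, MUC1, XBP1 and GATA3 lie in the upper part of the curve. They do not stand for their classes, since 11 of 55 keratins and 13 of 30 secretory genes reached 1 TPM. ESR1 lies at rank 3496, and ESR2 and TP63 lie below 1 TPM. The mean of VIM (red) rests on replicate 3.

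RNR2 (chrM:1673-3230, hg19) was the most abundant feature, with 11336, 10570 and 9050 TPM. RNR1 had 4856, 4373 and 4140 TPM. These were the only features counted on the mitochondrial chromosome, and both were lowest in replicate 3. ACTB (chr7:5566779-5570232) had 6756, 6849 and 7329 TPM. RPL7A, a protein of the large ribosomal subunit (chr9:136215069-136218280), had 6675, 6837 and 6640 TPM. The ranges of ACTB and RPL7A overlapped, so their order is not resolved.

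Of the 88 genes named as cytosolic ribosomal proteins, 83 reached 1 TPM, 77 reached 100 TPM and 60 reached 1000 TPM, with a median of 1530 TPM. Over all genes, 49%, 7.12% and 0.4% reached these levels. The ribosomal protein genes filled 56 of the first 100 ranks. As a class they held 15.9%, 16.0% and 14.9% of TPM. Without the correction for length the same genes, whose counted lengths are short, held 5.89% of CPM. Elongation and initiation factors held 2.51% ± 0.12 of TPM, nuclear-encoded subunits of oxidative phosphorylation 2.87% ± 0.13, heat shock proteins 1.61% ± 0.18, tubulins and actins 1.46% ± 0.08, proteasome subunits 1.09% ± 0.08 and glycolytic enzymes 0.789% ± 0.037 (SD, n = 3). Many ribosomal protein genes have near-identical processed pseudogenes, and how reads with several matches were counted is not given in the sources used here, so single values of this family are uncertain.

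Vertebrate ribosomal protein and elongation factor mRNAs are known to begin with a C followed by a run of pyrimidines, a feature that couples their translation to growth signals. Start-site windows of chosen genes are shown as examples, and the shares over all windows follow them. The feature is visible in the ribosomal protein and elongation factor windows shown. It is absent from the luminal genes shown, as it is from most genes. Each window runs from 40 bases before the annotated RefSeq start to 10 bases after it, on the gene's strand (GRCh38.p14). Capitals mark a run of C and T from the start base where a C is followed by at least 4 such bases, and the letters TATAA where they lie between 40 and 20 bases before the start.
RPLP0 (chr12:120201102-120201151, minus strand): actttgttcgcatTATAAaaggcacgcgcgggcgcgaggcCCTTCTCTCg
RPL7A (chr9:133348178-133348227, plus strand): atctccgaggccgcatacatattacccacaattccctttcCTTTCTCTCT
RPS6 (chr9:19380227-19380276, minus strand): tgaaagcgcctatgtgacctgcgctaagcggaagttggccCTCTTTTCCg
EEF1A1 (chr6:73521023-73521072, minus strand): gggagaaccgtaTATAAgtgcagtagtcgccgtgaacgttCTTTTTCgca
EEF2 (chr19:3985454-3985503, minus strand): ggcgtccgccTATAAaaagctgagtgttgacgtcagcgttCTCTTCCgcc
KRT8 (chr12:52926460-52926509, minus strand): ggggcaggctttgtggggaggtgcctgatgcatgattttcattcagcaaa
AGR2 (chr7:16804990-16805039, minus strand): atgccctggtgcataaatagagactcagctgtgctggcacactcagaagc
MUC1 (chr1:155192906-155192955, minus strand): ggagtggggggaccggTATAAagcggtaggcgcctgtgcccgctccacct
XBP1 (chr22:28800560-28800609, minus strand): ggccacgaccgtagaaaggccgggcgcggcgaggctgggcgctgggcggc
PGR (chr11:101129068-101129117, minus strand): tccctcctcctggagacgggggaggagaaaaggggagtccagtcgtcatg
GATA3 (chr10:8045293-8045342, plus strand): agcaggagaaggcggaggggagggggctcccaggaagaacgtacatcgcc

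The pyrimidine start was present in 45 of the 70 ribosomal protein genes with a RefSeq window (64.3%) and in 4.04% of all 27305 windows. By abundance it was present in 46.5% of 86 genes at 1000 TPM or more, in 8.24% of 1468 genes from 100 to under 1000 TPM, in 4.44% of 8312 genes from 1 to under 100 TPM and in 3.08% of 7503 genes under 1 TPM. Among the 40 genes at 1000 TPM or more that do not encode ribosomal proteins the share was 17.5%. The letters TATAA were found in 16.3% of genes at 1000 TPM or more, in 2.31% of genes from 1 to under 100 TPM, in 7.65% of genes under 1 TPM and in 4.12% of all windows, searched on the gene's strand only. These matches describe the annotated starts, and the starts used in T47D were not measured.

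Luminal keratins were among the most abundant transcripts, and almost all keratin mRNA came from 3 genes. KRT8 (chr12:53290971-53343650, hg19), the type II partner of the simple-epithelial filament, had 5667, 5280 and 7707 TPM and ranked 4. KRT19 (chr17:39679869-39684641), a small type I keratin, had 5150, 5304 and 6494 TPM and ranked 5. KRT18 (chr12:53342655-53346685), the type I partner of KRT8, had 3425, 3190 and 4667 TPM and ranked 17. All 3 were highest in replicate 3. KRT8, KRT18 and KRT19 together made up 97.5%, 97.0% and 97.9% of all keratin TPM. The ratio of KRT8 to KRT18 was 1.65 in each library, with an SD of 0.002, although both genes moved by more than 1000 TPM between libraries. The class held 1.46%, 1.42% and 1.93% of TPM, so its mean of 1.6% rests in part on replicate 3.

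The files hold 55 keratin genes, 27 on chromosome 12 between 52562780 and 53346685 and 28 on chromosome 17 between 38811872 and 39780882. Of these, 11 reached a mean of 1 TPM, 6 on chromosome 12 and 5 on chromosome 17, while 31 had at most 3 counts in every library and 20 had none. Over all genes, 49% reached 1 TPM, 39.5% had at most 3 counts in every library and 28.2% had none. Below the leading trio, KRT23 had 115, 166 and 99.5 TPM and KRT7, a keratin of ductal epithelia, had 101, 105 and 110 TPM, and their ranges overlapped. KRT10, a keratin of differentiating epidermis, had 67.6, 64.0 and 97.1 TPM, and KRT15 had 26.9, 39.9 and 37.1 TPM. KRT80 had a mean of 25.3 TPM, KRT4 of 11.1, KRT13 of 7.53 and KRT86 of 1.45. Among keratins of stratified and basal epithelium, KRT5, KRT14, KRT17 and KRT6A were near or at the floor. KRT10, KRT15, KRT4 and KRT13, given above, were not. KRT5 had 0, 2 and 0 counts, KRT14 had 1, 1 and 0, KRT17 had 3, 3 and 0, and KRT6A had 0 in every library.

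Among the 28 steroid and nuclear receptors, 23 reached a mean of 1 TPM (82.1%, beside 49% of all genes) and 3 reached 100 TPM (beside 7.12%). PGR, the progesterone receptor (chr11:100900355-101000544, hg19), was the most abundant, with 259, 283 and 164 TPM from 53992, 54688 and 28166 counts. It was lowest in replicate 3, where it lay below the orphan receptor NR2F6, which had 166, 157 and 196 TPM. RARA, a retinoic acid receptor, had 127, 112 and 107 TPM. ESR1, the estrogen receptor alpha (chr6:152011631-152450738), had 55.1, 56.2 and 61.6 TPM and ranked 3496. Its range overlapped with those of ESRRA, an orphan receptor at 57.8, 62.2 and 81.0 TPM, and of the oxysterol receptor NR1H2 at 50.1, 49.1 and 63.9 TPM. The ratio of PGR to ESR1 in TPM was 4.71, 5.04 and 2.65. The transcript of the receptor was therefore less abundant than that of its classical target in every library, with the smallest ratio in replicate 3. Estrogen receptor activity was not measured, and whether PGR depends on it in these cells was not tested.

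The vitamin D receptor VDR had 32.2, 34.8 and 30.0 TPM. NR3C1, the glucocorticoid receptor, had 3.83, 3.97 and 3.42 TPM, and NR3C2, the mineralocorticoid receptor, had 1.53, 1.32 and 1.42 TPM. ESR2, the estrogen receptor beta, stayed under 1 TPM with 68, 64 and 40 counts. PPARG had 0, 0 and 1 counts and ESRRB had none. Among the members with a mean of at least 1 TPM, NR2F1 had the widest spread relative to its mean, at 2.81, 2.16 and 18.6 TPM, and its mean of 7.85 TPM was set by replicate 3. The order PGR over ESR1 over ESR2 held in each library with no overlap of ranges.

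Of 30 luminal transcription factors, 29 reached 1 TPM (96.7%, beside 49% of all genes), 21 reached 10 TPM (70%, beside 33.7%) and 14 reached 100 TPM (46.7%, beside 7.12%). XBP1, a factor of secretory cells and the unfolded protein response, led with 2031, 2283 and 1850 TPM at rank 56. GATA3, which maintains luminal differentiation (chr10:8096667-8117164), had 750.5, 791 and 828 TPM at rank 142. FOXA1, the pioneer factor that opens chromatin for the estrogen receptor, had 355, 379 and 293 TPM. These 3 factors kept their order in every library. SPDEF had 224, 260 and 275 TPM, TRPS1 had 249, 263 and 169 TPM, and ELF5, a factor of the alveolar secretory lineage, had 130, 139 and 120 TPM. HES1, a Notch target, varied most relative to its mean among the members at 1 TPM or more, with 43.6, 69.1 and 122 TPM. TFAP2B was the single member under 1 TPM, with 19, 25 and 26 counts.

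Estrogen and progesterone response genes were nearly all detected, at levels that spanned more than 3 orders of magnitude. Of 28 genes, 27 reached 1 TPM (96.4%, beside 49% of all genes) and 12 reached 100 TPM (42.9%, beside 7.12%). AGR2, a disulfide isomerase of secretory cells (chr7:16832264-16844738), had 1819, 1747 and 1317 TPM. IGFBP4, which binds insulin-like growth factors, had 694, 792 and 830 TPM. PRLR, the prolactin receptor (chr5:35048861-35230691), had 591, 630 and 368 TPM. GREB1, an early estrogen target, had 185, 184 and 139 TPM, and CCND1, the cell cycle regulator cyclin D1, had 169, 162 and 138 TPM. TFF1, a secreted trefoil peptide often used as an estrogen marker, had only 45, 20 and 12 counts, or 5.73, 2.74 and 1.85 TPM. RET was the single member under 1 TPM, with 52, 65 and 13 counts.

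This list was lower in replicate 3 than in the other libraries. Among its 26 members averaging 50 counts or more, 23 had a lower CPM in replicate 3 than the geometric mean of replicates 1 and 2, with a median log2 difference of -0.40. Over all 12757 such genes, 7150 were lower, with a median of -0.04. PDZK1, a scaffold protein, had 146, 131 and 40.4 TPM, and RERG, a small GTPase, had 69.0, 79.5 and 33.6 TPM. The difference between replicates 1 and 2 had a median of 0.08 on the list. With a single group, these differences were not tested.

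Secretory genes of the mammary gland ranged from no count to over 1000 TPM. Of 30 genes, 13 reached 1 TPM (43.3%, beside 49% of all genes) and 4 reached 100 TPM (13.3%, beside 7.12%), while 13 had at most 3 counts in every library (43.3%, beside 39.5%). MGP, the matrix Gla protein (chr12:15033798-15038996), had 2044, 2285 and 1360 TPM at rank 61. CLU, the secreted chaperone clusterin, had 1061, 1170 and 1434 TPM. MUC1, the main apical mucin of luminal cells (chr1:155158300-155162706), had 876, 906 and 964 TPM. Apocrine products were present at lower levels, with AZGP1 at 85.5, 97.5 and 136 TPM, PIP at 80.0, 113 and 96.2 TPM and APOD at 69.9, 89.4 and 72.7 TPM. TFF3 had 18.5, 26.9 and 10.2 TPM. The milk protein genes CSN1S1, CSN2, CSN3 and LALBA had no count in any library, and neither had MUCL1, LYZ and CPB1. The mammaglobin gene SCGB2A2 had 1, 0 and 1 counts.

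Epithelial adhesion genes were all detected. All 30 reached 1 TPM (beside 49% of all genes) and 18 reached 100 TPM (60%, beside 7.12%), with a median of 158 TPM. EPCAM, the epithelial cell adhesion molecule (chr2:47596287-47614167), had 287, 287 and 289 TPM, the narrowest spread of the list. CDH1, the E-cadherin gene, had 378, 385 and 290 TPM, and JUP, the desmosomal plakoglobin, had 727, 675 and 694 TPM. The tight junction claudins CLDN4 and CLDN3 had 342, 340 and 480 TPM and 337, 326 and 484 TPM. ESRP1, an epithelial splicing regulator, had 150, 149 and 151 TPM. CD24 had 1024, 977 and 969 TPM, but these files place its counted exons on a copy on chromosome Y, so its level depends on how reads were shared between copies. CTNND1 was lowest with a mean of 5.19 TPM, and 93.0% of its counted exon bases were shared with the readthrough gene TMX2-CTNND1 on the same strand.

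Genes whose exon bases were all shared with a gene of the same strand mostly had few counts. Of 698 such genes, 99.1% had at most 3 counts in every library, against 40.8% of 21816 genes with no shared base. A further 367 genes (1.32%) were counted over exons on more than 1 sequence, 270 of them with an alternative haplotype of a chromosome, which lengthens the divisor and lowers their TPM. HSPA1A and HSPA1B are among them.

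Proliferation genes were all detected. The 25 genes had a median of 193 TPM, and 21 reached 100 TPM (84%, beside 7.12% of all genes). PCNA, the DNA polymerase clamp, had 567, 517 and 647 TPM, and TOP2A, a topoisomerase of dividing cells, had 473, 491 and 402 TPM. Among receptors of the ERBB family, ERBB3 had 151, 168 and 123.4 TPM and ERBB2 had 86.6, 96.1 and 100 TPM, and their ranges did not overlap. EGFR had 7.74, 9.43 and 7.11 TPM and ERBB4 had 4.0, 4.76 and 1.47 TPM. CDK4 had 251, 240 and 252 TPM, while CDK6, which shares its role at the entry into S phase, had a mean of 0.322 TPM. Of the 26 genes of this driver list, 24 reached 1 TPM (92.3%, beside 49% of all genes).

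Of 30 basal and myoepithelial markers, 15 reached 1 TPM (50%, beside 49% of all genes), and 7 had at most 3 counts in every library (23.3%, beside 39.5%). The defining markers KRT5 and KRT14 were at the floor, SOX10 had no count, and TP63 had a mean of 0.495 TPM. SFN, the epithelial 14-3-3 sigma protein, had 154, 133 and 180 TPM, the integrin ITGB4 had 86.1, 80.7 and 82.0 TPM and the cadherin CDH3 had 66.1, 68.3 and 54.3 TPM. CD44 had 23.1, 29.5 and 14.7 TPM. Of the contractile genes, TAGLN, which encodes an actin-binding protein of smooth muscle, had 22.5, 29.5 and 17.0 TPM. The smooth muscle actin ACTA2 had 13.2, 24.2 and 14.1 TPM, with 33.7% of its exon bases shared with a gene of the opposite strand. The oxytocin receptor OXTR had a mean of 1.36 TPM and the myosin kinase MYLK one of 1.09 TPM. The contractile genes MYH11 and CNN1 stayed under 1 TPM, with means of 0.080 and 0.024 TPM.

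Markers of other lineages reached 1 TPM less often than all genes. This level was reached by 8 of 30 mesenchymal (26.7%), 5 of 20 endothelial (25%), 4 of 30 haematopoietic (13.3%), 4 of 25 neuronal and glial (16%), 3 of 23 muscle (13.0%) and 2 of 26 hepatic and intestinal markers (7.69%), beside 49% of all genes. At most 3 counts in every library were found for 33.3% of the mesenchymal, 50% of the endothelial, 60% of the haematopoietic, 52% of the neuronal and glial, 73.9% of the muscle and 73.1% of the hepatic and intestinal markers, beside 39.5% of all genes. Of 15 melanocyte and adipocyte markers, 5 reached 1 TPM (33.3%), and 46.7% had at most 3 counts in every library. Of 15 prostate markers, 5 reached 1 TPM (33.3%), and 40% had at most 3 counts in every library. PTPRC, the pan-leukocyte antigen CD45, had no count in any library, and neither had the endothelial markers TEK and ERG. In bulk RNA, a few cells with a high level and many cells with a low level cannot be told apart.

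Some members of these lists were expressed at clear levels in all 3 libraries. S100A4 had 70.4, 52.7 and 84.6 TPM and the collagen gene COL1A1 had 35.0, 36.9 and 37.6 TPM. TWIST1, a factor of mesenchymal development, had 27.1, 29.4 and 13.5 TPM. The related TWIST2 had 0, 0 and 2 counts and SNAI2, another factor of this programme, had 0, 0 and 3. The fast skeletal troponin TNNI2 had 86.4, 84.8 and 88.5 TPM and the slow troponin TNNT1 had 35.1, 41.2 and 20.0 TPM. TYRP1, an enzyme of melanin synthesis, had 20.0, 23.2 and 15.3 TPM. Neuronal tubulin TUBB3 had 22.3, 27.8 and 14.8 TPM. TNNI2 and COL1A1 differed little between libraries.

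Of 26 pluripotency and germ cell markers, 4 reached 1 TPM (15.4%, beside 49% of all genes) and 20 had at most 3 counts in every library (76.9%, beside 39.5%). TFAP2C, which is also a luminal factor, had 140, 131 and 120 TPM, and LIN28A, an RNA-binding protein that blocks let-7 maturation, had 29.8, 28.9 and 18.9 TPM. NANOG had 3, 0 and 0 counts and NODAL had none. Of 23 cancer-testis antigens in the files, 8 reached 1 TPM (34.8%, beside 49%) and 12 had at most 3 counts in every library (52.2%, beside 39.5%). PRAME, a repressor of retinoic acid signalling, had 92.5, 99.5 and 91.5 TPM. MAGEA3 had 25.7, 26.7 and 47.9 TPM and MAGEA6 had 21.3, 21.4 and 18.1 TPM, but these copies are nearly identical and their split is uncertain.

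VIM and MSN were the mesenchymal markers at least 4-fold higher in replicate 3 than in both other libraries, among genes with at least 50 counts in a library. VIM, the intermediate filament of mesenchymal cells (chr10, 30.0% of exon bases opposite VIM-AS1), had 7, 12 and 395 counts, or 0.205, 0.379 and 14 TPM. Its mean of 4.86 TPM fell to 0.292 TPM without replicate 3. MSN, the cytoskeletal linker moesin, had 0, 3 and 60 counts. Below 50 counts, MMP2 had 0, 0 and 14, and TWIST2 and SNAI2 were likewise seen only in replicate 3, at the 2 and 3 counts given above. The summed level of the 30 mesenchymal markers was 168.3, 168.3 and 169.0 CPM. Of the 27 with a count, 18 had their highest CPM in replicate 3, as had 34.6% of all 19917 genes with a count. Of the 8 averaging 50 counts or more, 5 were higher and 3 lower in replicate 3 than the geometric mean of the other libraries. PDGFRA, POSTN and FOXC2 were at 0 in all libraries, and DCN and LUM had 1 count at most. The 20 endothelial markers were summed at 43.9, 46.7 and 45.9 CPM. Of the 15 with a count, 9 were highest in replicate 3, among them ROBO4 with 0, 0 and 13 counts and CDH5 with 0, 0 and 8. Whether RNA of other cells contributed to these counts was not tested.

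**Figure D2:**
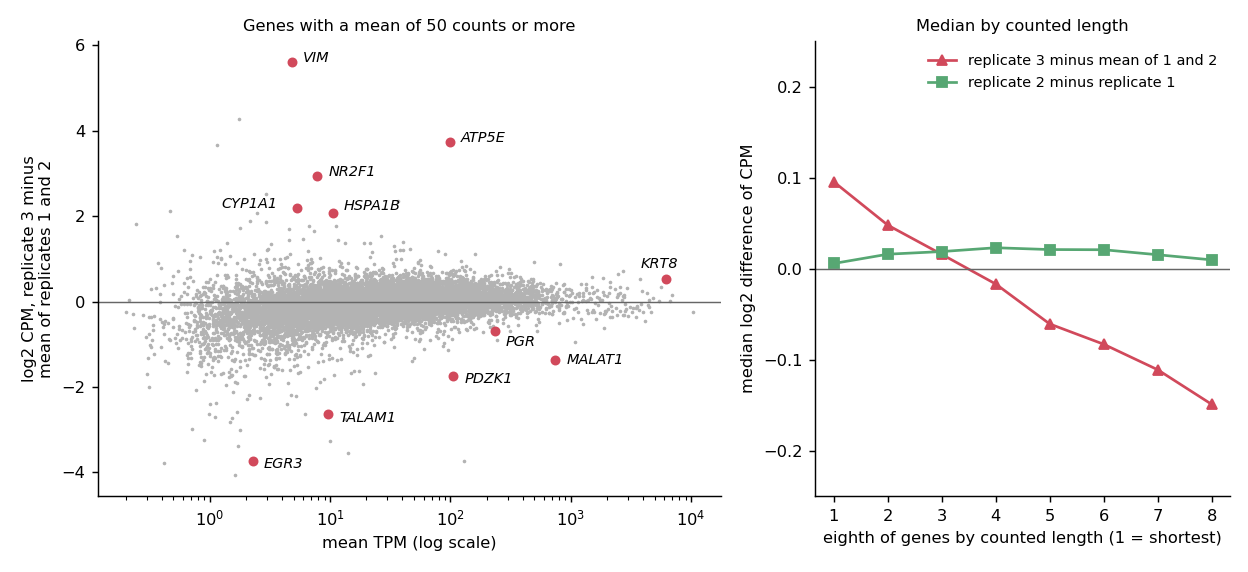
Left: log2 CPM in replicate 3 minus the mean log2 CPM of replicates 1 and 2 (vertical) against mean TPM (horizontal, log scale) for genes averaging 50 counts or more, with named genes in red. Right: median of this difference, and of replicate 2 minus replicate 1, over 8 groups of genes by counted length; the first falls from 0.10 in the shortest genes to -0.15 in the longest and the second stays near 0.

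Genes that stood apart in 1 library were nearly all in replicate 3. Among 13055 genes with at least 50 counts in a library, 13 were at least 4-fold higher (0.0996%) and 39 at least 4-fold lower (0.299%) in replicate 3 than in both other libraries, on CPM with 0.5 counts added. In replicate 1 there were 0 higher (0%) and 1 lower (0.00766%), which was MSN, and in replicate 2 there were 0 in either direction (0%). The 13 higher genes were VIM, MSN, ATP5E, PLAU, SIGLEC6, MRPS24, CSNK1E, NR2F1, SNHG25, TM4SF1, FOS, CYP1A1 and HSPA1B. The stress-inducible chaperone HSPA1B had 1004, 1011 and 3532 counts, the immediate early factor FOS had 29, 49 and 182, and CYP1A1, the main target of the aryl hydrocarbon receptor, had 96, 109 and 392. Chosen after their values were seen, JUN had 12, 16.8 and 35.5 TPM and DUSP1 had 5.01, 7.94 and 20.9 TPM. The 63 genes named as heat shock proteins that averaged 50 counts or more had a median log2 difference of -0.01 in replicate 3. Of these 63 genes, 34 lay below 0. All genes of this class together held 1.54%, 1.48% and 1.81% of TPM.

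Of these 13 genes, ATP5E, MRPS24 and CSNK1E shared 66.3%, 87.1% and 88.0% of their exon bases with a readthrough gene of the same strand. ATP5E, a subunit of ATP synthase, had 134, 133 and 1486 counts. Across the table, 34 genes averaging 50 counts or more shared over 75% of their exon bases in this way, and their median log2 difference of replicate 3 was 0.48. It was 0.08 for the 53 such genes that shared over 50% and up to 75%, the range of ATP5E. For the 97 such genes that shared over 25% and up to 50% it was -0.04, as it was for the 12206 that shared none.

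Among the 39 lower genes the leading members were LOC100129148 at 61, 65 and 1 counts, the diamine oxidase AOC1 at 80, 101 and 4, the immediate early factor EGR3 at 242, 220 and 14, and MIR1282, which lies opposite SERF2, at 293, 296 and 18. They were followed by the arginine transporter SLC7A2, the potassium channel KCNJ2 at 234, 177 and 16, the chemokine CXCL14 at 473, 745 and 42, and the histone gene HIST1H4C at 97, 75 and 7. EGR3 moved opposite to FOS. The 475 zinc finger genes named ZNF had a median log2 difference of -0.23 and the 268 genes named as antisense one of -0.16, beside -0.04 for all genes.

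The difference also followed the counted length. Genes of the shortest eighth, up to 1527 bases, had a median log2 difference of 0.10, and those of the longest eighth, from 6942 bases, one of -0.15, while replicate 2 minus replicate 1 had medians of 0.01 in both. PGR and PRLR, with counted lengths of 13037 and 12338 bases, belong to the longest eighth. Both fell by 0.69 on the log2 scale in replicate 3, more than the median of that eighth. The 79 nuclear-encoded subunits of oxidative phosphorylation had a median of 0.14. The part of counted length in the lower values of the hormone response genes was not tested.

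Most genes varied little between libraries. The median coefficient of variation was 17.2% for 4262 genes from 1 to under 10 TPM, 7.99% for 7373 genes from 10 to under 100 TPM, 6.74% for 1864 genes from 100 to under 1000 TPM and 8.73% for the 111 genes above. A coefficient over 50% was found for 326, 34, 2 and 0 genes of these classes. The counts of each pair of libraries differed beyond sampling noise, with a chi-square per degree of freedom of 6.82 for replicates 1 and 2, 28.3 for 1 and 3 and 38.35 for 2 and 3, so no library was a second copy of another.

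Counted genes shorter than 300 bases, which are mostly small RNA genes, had high TPM from few counts. MIR5047 led with 621, 598 and 586 TPM from 991, 885 and 774 counts over 100 bases. It lies inside DDX5 on the same strand, as does MIR3064. SNORD80, SNORD47, SNORD76 and SNORD44 lie inside GAS5, SNORD31 inside SNHG1, SNORD36A inside RPL7A and SNORA40 inside TAF1D, all on the strand of the host. The libraries were made from mRNA, so the counts of these 9 genes cannot be told apart from reads of the host transcript and give no level of the mature small RNA. SNORD104 had 117, 118 and 247 TPM from 150, 140 and 261 counts. It lies between the ends of SNHG25 on the same strand, a gene counted over 111 bases that had 27, 26 and 116 counts.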

How the data were processed

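RNA was measured in the 3 normoxia libraries of T47D, grouped by their titles. Per the labels, the authors checked reads with FastQC 0.11.5, aligned them with STAR 2.5.2a to hg19 and deposited raw counts per gene from featureCounts 1.5.1, with the counted length of each gene. The strand option of the counting, and what was done with reads of more than 1 match, are not given in the sources used here.

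TPM was computed from the deposited counts and lengths, averaged over the 3 libraries and ranked. CPM was used between libraries. TMM factors and the BCV came from edgeR 4.0.16 in R 4.3.3, over the genes left by filterByExpr (min.count 10, min.total.count 15). DESeq2 1.42.0 gave alternative size factors. There was a single group, so no test between conditions was run. Errors are SD with n = 3. The TPM, BCV and outlying-gene code was tested on simulated data. Promoter windows came from RefSeq (GRCh38.p14), as did biotypes, matched by symbol or synonym for all but 954 of 27754 genes.

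Named genes were the 25 highest by mean TPM, the 10 highest under 300 bases, members of the 18 lists, keratins at 1 TPM or more, leading members of each transcript class and up to 15 genes per library that stood furthest from the other libraries. A member of the receptor list is not reported here by name, though it is included in the counts of its list. Genes named outside this rule are said to be chosen after their values were seen. The libraries, lists and rule were chosen with earlier results of these data known.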

Additional observations from a re-analysis of the deposited data

How the results depend on the processing

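The number of genes detected stayed within 1.5 times of 13610 under every threshold and scaling tried. The count of members of each list at 1 TPM or more stayed within 1.5 times on CPM, with short genes left out and with each library left out. At 10 TPM the mesenchymal, endothelial and neuronal lists had 4, 1 and 1 members in place of 8, 5 and 4. That is 13.3%, 5% and 4% in place of 26.7%, 25% and 16%. The share of all genes also fell, to 33.7% in place of 49%. On TMM-normalized CPM, without the correction for length, the share of the 100 most abundant genes was 16.2%, of cytosolic ribosomal proteins 5.885% and of keratins 1.144%. There, 45 of 52 single-gene levels moved beyond 1 SD. CPM and TPM are unlike units, so this count does not measure how stable the levels are. With genes under 300 bases left out, the 100 most abundant genes held 26.35%, and with 200 bases taken off each counted length, 19 of 52 levels moved beyond 1 SD. The mean correlation of library pairs (0.9953) was 0.9908 with a pseudocount of 0.1 and ranged from 0.9935 to 0.9975 with each library left out. The BCV of 0.1359 ranged from 0.06011 without replicate 3 to 0.1799 without replicate 1. With a minimum of 10 counts in place of 50, 2 genes were higher and 5 lower in replicate 1, 7 higher and 7 lower in replicate 2, and 51 higher and 131 lower in replicate 3. At 8-fold there were 0 lower in replicate 1, and 7 higher and 8 lower in replicate 3. No paired analysis was possible because a single group was described and no test was run. Depth limits calls near 3 counts, and 3 libraries limit every SD.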

Other observations

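All genes of this part were chosen after their values were seen. SERPINA6, which encodes corticosteroid-binding globulin, a plasma protein made mainly by the liver, ranked 48 with 2288, 2509 and 1810 TPM in replicates 1, 2 and 3 (chr14:94770585-94789688, hg19). Its neighbours in the serpin cluster of chromosome 14 were far lower. SERPINA1, the alpha-1 antitrypsin gene, had 90.8, 111 and 57.6 TPM, SERPINA10 had 4.12, 5.41 and 1.82 TPM, SERPINA3 had 2.32, 5.27 and 1.76 TPM, and SERPINA4 and SERPINA12 had no count. Of the 26 hepatic and intestinal markers, 2 reached 1 TPM. CRABP2, which carries retinoic acid to the nucleus, had 1728, 1753 and 1729 TPM, and CTSD, a lysosomal protease, had 1876, 1800 and 1980 TPM. DSCAM-AS1, a long noncoding RNA of luminal breast cancer, had 699, 808 and 595 TPM.

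MALAT1, a nuclear noncoding RNA, had 113139, 140330 and 40766 counts, and TALAM1, annotated on the opposite strand with 88.7% of its own exon bases shared with MALAT1, had 1430, 1910 and 221. TALAM1 amounted to 1.26%, 1.36% and 0.542% of MALAT1 counts. Both were lowest in replicate 3.

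With at least 10 counts in a library and at most 1 in each of the others, 18 of the 27754 genes in the files were seen in replicate 3 only. There were 2 such genes in replicate 1 and 4 in replicate 2. Those of replicate 3 were led by the ectonucleotidase NT5E at 0, 0 and 45 counts, the caveolin CAV1 at 1, 0 and 39 and CYP1A2 at 1, 0 and 17. BCAT1, ESM1, TBX18 and the glutathione transferase GSTP1 each had 0, 0 and 15, and the metalloprotease MMP2 had 0, 0 and 14. In the reverse direction, 24 genes were missing in replicate 3 only, against 0 and 1, and they included TUBB2B at 22, 22 and 1 counts. Whether RNA of other cells contributed to these counts was not tested.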
